A study of Mus musculus with 24 samples.

Results

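Rab genes encode small GTPases that direct membrane traffic between the organelles of a cell. They were chosen by name, as every row of the count table whose symbol is Rab followed by a number and at most a letter and a further digit, which found 51 of 17811 genes. Messenger RNA was counted along the villus of the mouse jejunum, in epithelial cells sorted into 6 zones by flow cytometry, with antibodies to CD73 and CD26. V1 was the most bottom zone, followed by V2 (bottom), V3 (bottom-middle), V4 (middle), V5 (middle-tip) and V6 (tip). Each of 4 mice gave 1 bulk library per zone. All groups were male C57BL/6 mice aged 10 weeks on regular chow, and the labels give no mutant allele and no agent, so the sort is what sets the zones apart. The labels describe no gate against goblet, enteroendocrine or immune cells, and markers of these cells were found in every zone.

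A Rab protein switches between a GTP-bound form, which sits on a membrane and recruits motors and tethers, and a GDP-bound form that is held in the cytosol. Exchange factors switch it on, GTPase-activating proteins with a TBC domain switch it off, and a lipid tail added by prenylation anchors it. In the intestinal epithelium, Rab8 and Rab11 family members are known for carrying proteins to the brush border of enterocytes, while Rab3 and Rab27 proteins are known for the release of stored granules from secretory cells.

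The libraries held 806541 to 2266261 UMIs, tags by which each molecule is counted a single time. CPM below are UMI counts scaled to a common library total by edgeR's cpm function with TMM factors, and a value with ± is the mean and SD over the n = 4 mice of a zone. A slope is the log2 change from a zone to the next, ± SE. Summed enterocyte markers went from 17221 ± 6509 CPM in V1 to 85085 ± 13540 CPM in V6. Summed goblet cell markers went from 74486 ± 25092 CPM in V1 through 37771 ± 14295 in V2 to 12300 ± 5039 in V3 and 12033 ± 2844 in V6. The range in V1, from 49170 to 96601 CPM, lay above that of every zone from V3 on. Enteroendocrine markers were at 2120 ± 322 CPM in V1, 807 ± 161 in V5 and 5851 ± 1393 in V6, and leukocyte markers went from 29.3 ± 25.1 CPM in V1 to 265 ± 21.4 in V6.

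All 51 Rab genes had at least 1 UMI. Of these, 39 had counts high enough to be tested, with means from 4.78 CPM (Rab3a) to 246 CPM (Rab39), and 12 did not. With zones taken as equally spaced, 11 Rab genes rose and 7 fell from bottom to tip at an adjusted p under 0.05 in edgeR's quasi-likelihood test, which is 18 of 39. Over all 9328 genes tested, 45% were called, 22.1% higher and 22.8% lower toward the tip, so the share of Rab genes called, 46.2%, was near the background. The median slope of the Rab genes tested was 0.028 (log2 per zone), against -0.0046 over all genes tested. Levels of the 51 genes summed to 2582 ± 145 CPM in V1 and 2824 ± 143 CPM in V6.

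The rises were those of Rab30, Rab31, Rab24, Rab5c, Rab1a, Rab22a, Rab6a, Rab11a, Rab10, Rab8a and Rab11b, and the falls those of Rab27a, Rab15, Rab3d, Rab27b, Rab29, Rab39 and Rab25. Apart from Rab30, which was 35.7-fold higher in V6 than in V1, the fitted folds of the rises were between 1.17 and 1.93. With the mouse as a term in the model, 14 Rab genes rose and 7 fell (background 55.3%, or 27.6% and 27.8% by direction), the additional ones being Rab17 (slope 0.10, adjusted p = 0.00958), Rab5a (0.11, adjusted p = 0.0306) and Rab8b (0.21, adjusted p = 0.0102). Scaled by total UMIs alone, which shifted the median difference between V6 and V1 over all genes from -0.00029 to -0.33 (log2), 4 rose and 7 fell (background 52.7%, of which 13.1% higher and 39.6% lower). The 4 were Rab30, Rab24, Rab5c and Rab1a.

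**Figure D1:**
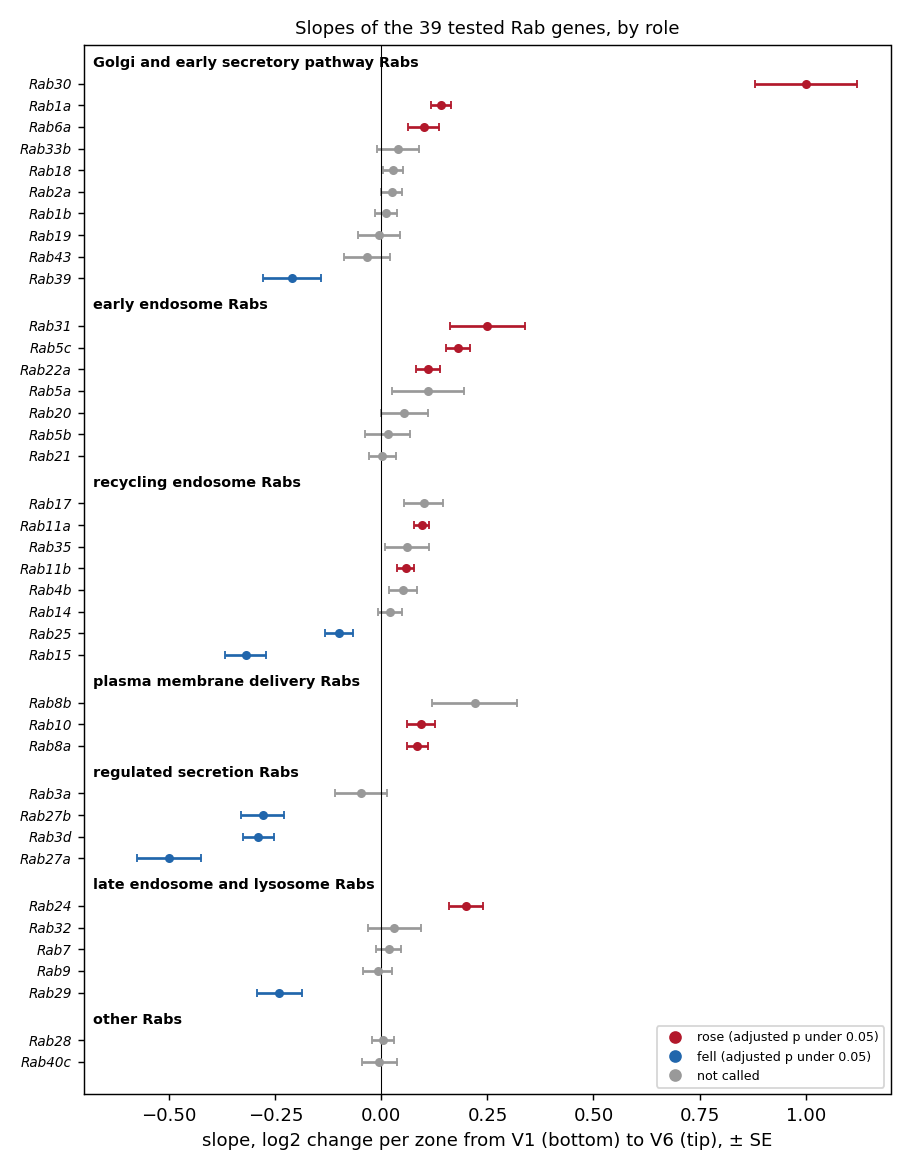
Slope of each of the 39 tested Rab genes in log2 change per zone (horizontal axis, ± SE over 24 libraries), grouped by role, with red for a rise and blue for a fall at an adjusted p under 0.05. Rab30 stands at 1.00 and Rab27a at -0.50, while the other rises reach 0.25 at most.

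Between the ends of the axis, 14 Rab genes differed, 8 higher and 6 lower in V6 than in V1 (background 38.8%, or 20.2% higher and 18.6% lower). The model with the mouse called 18, of which 11 were higher and 7 lower (background 51.4%, or 26.7% and 24.7%). The 4 values of V6 lay above the 4 of V1 for 8 Rab genes and below them for 5, against 17.9% and 16.5% of all genes tested. Testing for a difference of any kind among the zones called 10 Rab genes (background 27.5%). These were Rab30, Rab24, Rab5c, Rab1a, Rab11a, Rab3d, Rab15, Rab27a, Rab27b and Rab29. The model with the mouse as a term called 18 (background 48.6%). Over V2 to V6, 6 Rab genes changed (background 12.5%), Rab11a, Rab5c, Rab1a, Rab30 and Rab24 upward and Rab3d downward.

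Few steps between neighbouring zones passed the test. In edgeR 1 Rab gene was called from V2 to V3 (background 0.289%) and 0 at the other steps, where 1.52% of all genes were called from V1 to V2, 0.0643% from V3 to V4, 0% from V4 to V5 and 0.268% from V5 to V6. At an unadjusted p under 0.05 there were 4, 7, 5, 0 and 1 Rab genes from the first step to the last. With the mouse in the model 6 Rab genes were called from V1 to V2 (background 14.9%), 6 from V2 to V3 (4.77%), 1 from V3 to V4 (2.13%), 0 from V4 to V5 (0%) and 1 from V5 to V6 (1.5%). The single calls of the upper steps were both those of Rab30.

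Start regions are shown for 7 genes whose messages moved along the axis, each as the 200 bases from 225 to 26 before the RefSeq start (GRCm38.p6), so that members with opposite slopes can be read side by side. Capitals mark the motifs searched on both strands, which were TATAAA or CCAAT or GGGCGG or CACGTG or TGACGTCA. Rab27a is at chr9:73044585-73044784 (plus strand, the first of 2 starts), Rab3d at chr9:21918209-21918408 (minus), Rab39 at chr9:53706258-53706457 (minus) and Rab25 at chr3:88548305-88548504 (minus). Of the genes that rose, Rab5c is at chr11:100738241-100738440 (minus), Rab1a at chr11:20201187-20201386 (plus) and Rab11a at chr9:64737782-64737981 (minus).
Rab27a: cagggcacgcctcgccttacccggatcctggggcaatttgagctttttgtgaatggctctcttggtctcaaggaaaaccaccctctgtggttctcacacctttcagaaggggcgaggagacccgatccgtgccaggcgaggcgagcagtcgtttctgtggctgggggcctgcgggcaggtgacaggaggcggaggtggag
Rab3d: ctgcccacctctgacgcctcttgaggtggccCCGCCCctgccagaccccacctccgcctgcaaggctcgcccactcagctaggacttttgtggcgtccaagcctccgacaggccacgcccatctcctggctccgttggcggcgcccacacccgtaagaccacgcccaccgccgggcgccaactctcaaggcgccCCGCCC
Rab39: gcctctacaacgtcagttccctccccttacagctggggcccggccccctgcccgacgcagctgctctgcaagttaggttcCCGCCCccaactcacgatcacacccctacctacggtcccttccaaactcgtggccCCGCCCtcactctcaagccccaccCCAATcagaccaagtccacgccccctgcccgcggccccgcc
Rab25: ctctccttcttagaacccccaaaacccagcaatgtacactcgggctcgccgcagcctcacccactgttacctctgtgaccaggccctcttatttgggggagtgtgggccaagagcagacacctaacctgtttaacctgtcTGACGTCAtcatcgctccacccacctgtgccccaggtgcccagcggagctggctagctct
Rab5c: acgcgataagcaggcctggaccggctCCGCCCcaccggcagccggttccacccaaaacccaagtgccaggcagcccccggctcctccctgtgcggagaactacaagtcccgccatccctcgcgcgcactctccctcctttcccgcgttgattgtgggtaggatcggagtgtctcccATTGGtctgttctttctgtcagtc
Rab1a: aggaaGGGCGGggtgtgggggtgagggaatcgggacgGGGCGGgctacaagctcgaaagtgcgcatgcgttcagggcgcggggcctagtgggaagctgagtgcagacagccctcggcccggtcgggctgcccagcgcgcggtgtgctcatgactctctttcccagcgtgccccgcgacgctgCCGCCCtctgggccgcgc
Rab11a: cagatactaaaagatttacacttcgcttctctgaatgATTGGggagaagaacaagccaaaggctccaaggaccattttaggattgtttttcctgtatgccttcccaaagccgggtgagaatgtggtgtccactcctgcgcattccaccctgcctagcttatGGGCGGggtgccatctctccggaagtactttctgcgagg

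Entries were found for 44 of the 51 genes, with none for Rab18, Rab26, Rab27b, Rab2a, Rab30, Rab36 and Rab37, and they gave 56 windows. GGGCGG, the core letters of a GC box, stood in 53.6% of the Rab windows and in 28.2% of all 32851 windows of this length. CCAAT stood in 37.5% against 29.3%, TATAAA in 3.57% (2 windows) against 9.39%, CACGTG in 5.36% against 4.81%, and TGACGTCA in 1.79% against 1.18%. The 25 bases next to the start lie outside the windows, so a TATAAA that reaches into them was not counted. Of the windows printed, Rab27a held no match, Rab25 held the 1 match to TGACGTCA among the Rab windows, and Rab1a held 3 matches to GGGCGG. For Rab27a and Rab1a the RefSeq starts used, at 73044810 and 20201412, lie before the gene starts of GENCODE M21, at 73044854 and 20201432. Windows placed on the latter starts would differ. Windows of rising and of falling genes both held GGGCGG, as in Rab5c and Rab3d. A match describes these letters and shows no site in use.

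Among Rabs of regulated secretion, 3 genes were highest at the bottom of the villus. Of the 8 with this role, 4 were tested, of which Rab27a, Rab27b and Rab3d fell, against 22.8% of all genes, and Rab3a had a slope of -0.047 ± 0.061 (adjusted p = 0.557). Their summed level went from 151 ± 47.9 CPM in V1 through 94.6 ± 18.0 in V2 to 44.6 ± 9.58 in V3, and stood at 59.6 ± 8.81 in V6. All 10 goblet cell markers fell over the same zones, with 74486 ± 25092 CPM for V1 and 12300 ± 5039 for V3 when summed, and their part in the result was not tested. In bulk samples, fewer cells of a type and less RNA per cell cannot be told apart.

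Rab27a, which docks granules at the plasma membrane, had 18.3, 42.5, 37.4 and 15.3 CPM in V1 of mice 1 to 4, and 3.93, 20.4, 18.8 and 15.0 CPM in V2. In V3 it had 1.55, 5.47, 3.91 and 2.35 CPM, and in V6 4.83, 4.17, 2.81 and 5.82 CPM. Every V1 library lay above every library from V3 on, and the values from V3 to V6 overlapped. They rested on few molecules, with 20 UMIs in V3 over the 4 mice against 197 in V1. The slope was -0.50 ± 0.076 (edgeR quasi-likelihood adjusted p = 1.2e-05), and V1 was 6.29-fold above V6 (adjusted p = 5.7e-05).

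Rab27b, its close relative with the same kind of partners, had 30.3, 61.8, 44.1 and 29.5 CPM in V1 and 19.2, 27.8, 36.8 and 32.7 CPM in V2. The values were 6.70, 17.6, 9.37 and 7.84 CPM in V3 and 16.3, 16.7, 18.2 and 20 CPM in V6. The V1 and V2 libraries all lay above those of V3, and the V6 libraries overlapped with those of V3. Its slope was -0.28 ± 0.050 (adjusted p = 1.1e-04). Its step from V2 to V3, -1.46 ± 0.31 on the log2 scale (adjusted p = 0.0367), was the 1 step called. This call ended without mouse 1, 3 or 4, when 0 Rab genes were called for the step (7 of 39 had an unadjusted p under 0.05 with all mice, and DESeq2 called 2 and limma-voom 0). With the mouse in the model 6 Rab genes were called for it, Rab27b, Rab27a, Rab15, Rab3d and Rab39 downward and Rab5c upward.

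Rab3d, known from the granules of exocrine cells, had 57.5, 83.9, 83.4 and 53.1 CPM in V1, 24.2, 26.1, 26.6 and 23.5 CPM in V3, and 20.5, 20.8, 23.1 and 37.5 CPM in V6. All V1 libraries lay above all others, the closest being V2 of mouse 2 at 52.2 CPM, and mouse 4 stood apart in V6. The slope was -0.29 ± 0.037 (adjusted p = 1.3e-06), with V1 2.71-fold above V6. Rab3a, best known from synaptic vesicles, had between 2.06 and 7.25 CPM in all 24 libraries, and its zones overlapped. Mpv17l2, which overlaps Rab3a on the opposite strand, held 1445 UMIs against 180 for Rab3a. The use of strand in counting is not given in the sources used here, so reads of the 2 may not be told apart.

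The other secretion Rabs were too low to be tested. Rab37 had 100 UMIs in all, 35 of them in V1 and 5 in V4, and 18 of those in V1 came from mouse 2, without which 17 are left. Rab3b and Rab3c, known from neurons and hormone cells, had 35 and 38 UMIs, of which 13 and 16 were in V6 and 0 and 1 in V3, and Rab26 had 2 in all. Mouse 1 alone gave 8 and 12 of these V6 molecules, and without it 5 and 4 are left. Summed enteroendocrine markers had 5851 ± 1393 CPM in V6 and 627 ± 289 CPM in V4, and their part was not tested. These markers did not move as one, since 6 of the 9 tested rose in slope and 1 fell.

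**Figure D2:**
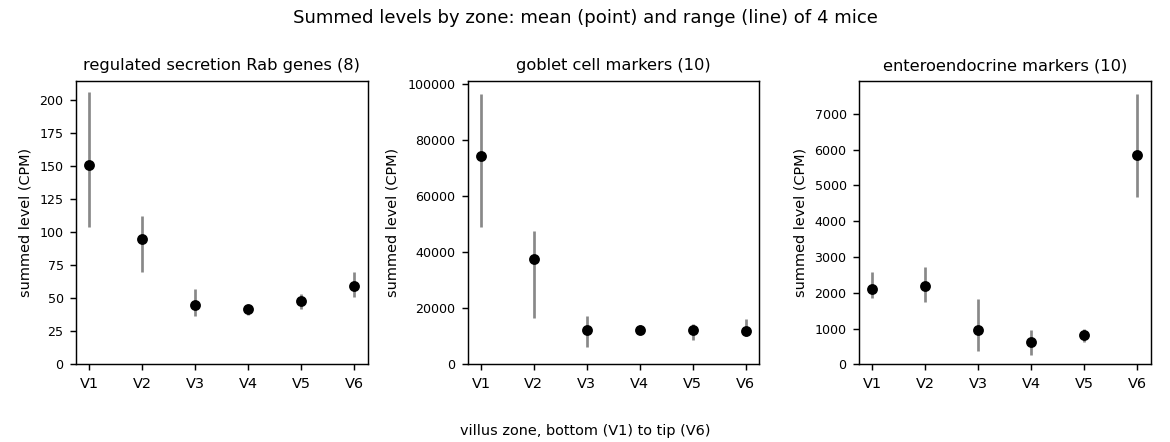
Summed CPM of the 8 secretion Rab genes, 10 goblet cell markers and 10 enteroendocrine markers in each zone (point, mean; line, lowest to highest of 4 mice). The secretion Rabs fall from 151 CPM in V1 to 44.6 in V3, the goblet markers fall over the same zones, and the enteroendocrine markers are highest in V6.

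**Figure D3:**
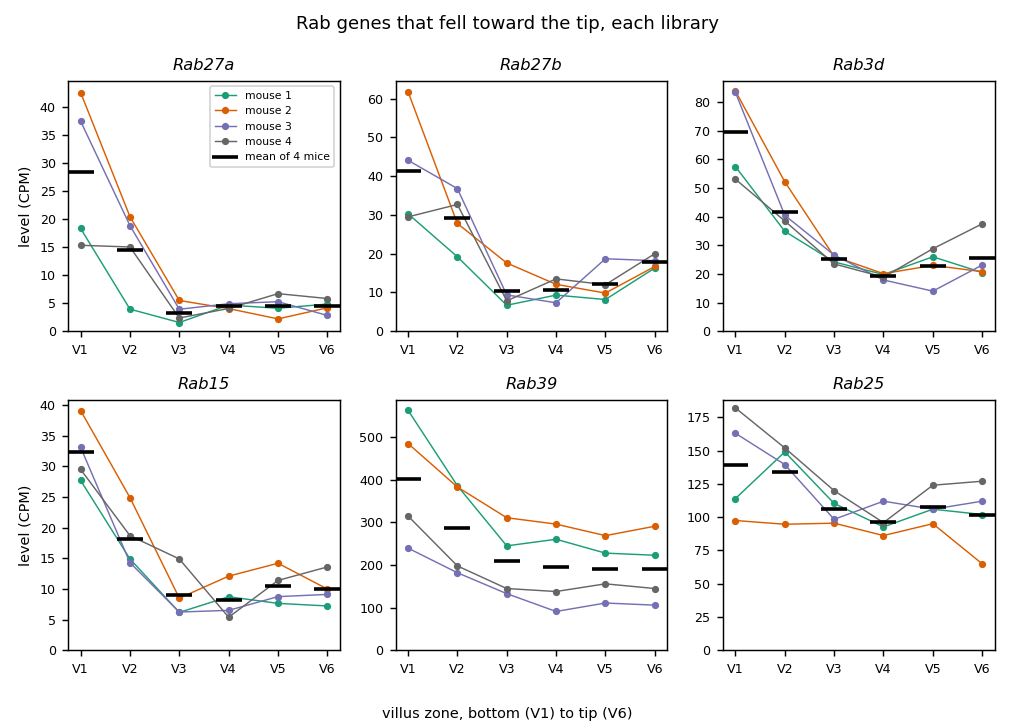
Level in CPM (axes from 0) of 6 Rab genes that fell, by zone, with a line for each mouse and a bar for the mean of 4. Most of each fall lies between V1 and V3, and Rab39 lies higher in mice 1 and 2 than in mice 3 and 4 in all 6 zones.

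Bends in the course over the zones were tested as curvature, which called 4 Rab genes, all with their lowest mean in V3 or V4 (background 7.41%). This contrast does not tell a low point from a fall that levels off. No rise after the low mean was called over V3 to V6 for Rab27b (0.25, edgeR adjusted p = 0.302), Rab3d (0.031, 0.948) or Rab15 (0.079, 0.892). Rab27a was not tested there. These were Rab27b (0.22 ± 0.036, adjusted p = 4.6e-04), Rab3d (0.15 ± 0.026, adjusted p = 5.8e-04), Rab15 (0.16 ± 0.035, adjusted p = 0.00335) and Rab27a (0.24 ± 0.058, adjusted p = 0.0125). A total of 8 were called with the mouse in the model (background 21.9%). The additional genes were Rab39, curved in the same sense (0.076, adjusted p = 5.8e-05), and Rab5c (-0.054, adjusted p = 0.008), Rab17 (-0.076, adjusted p = 0.012) and Rab6a (-0.042, adjusted p = 0.026), curved in the other. Without mouse 3 only 2 were called.

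Among the recycling endosome Rabs, the members of the Rab11 family moved in opposite directions. Of 8 genes with this role, all tested, Rab11a and Rab11b rose, Rab15 and Rab25 fell, and 4 did not pass the test, so that 4 of 8 were called against 45% of all genes. Rab11a, which carries cargo from recycling endosomes to the apical membrane, had 147, 172, 163 and 155 CPM in V1 and 225, 214, 199 and 215 CPM in V6. The 2 groups did not overlap, and the highest mean was that of V4 (218 ± 25.2 CPM). Its slope was 0.095 ± 0.018 (adjusted p = 2.2e-04), a fold of 1.34 between V6 and V1, and scaled by total UMIs 0.029 (adjusted p = 0.197). Rab11b, the second ubiquitous form, had 110.2, 121, 134 and 97.3 CPM in V1 and 149, 127, 140.3 and 126 CPM in V6, with overlap (slope 0.058 ± 0.020, adjusted p = 0.0228). That call ended without mouse 1 or 3, and scaled by total UMIs the slope was -0.0088.

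Rab25, the epithelial member of the family, had 114, 97.5, 163 and 182 CPM in V1 and 102, 65.0, 112 and 127 CPM in V6. It was lower in V6 in each mouse, though the zones overlapped because mice 3 and 4 began higher. The slope was -0.10 ± 0.033 (adjusted p = 0.0236). The call ended without mouse 1, 3 or 4. With the mouse in the model the slope was -0.094 ± 0.022 (adjusted p = 3.7e-04).

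Within libraries, the log2 ratio of Rab11a to Rab25 rose by 0.19 per zone, with 0.17 in the lowest and 0.21 in the highest mouse (2-sided permutation test of zones within mice, adjusted p = 5.6e-04 over 14 pairs of related genes). The ratio of Rab11b to Rab25 rose by 0.15 (permutation adjusted p = 9.1e-04). Rab11a against Rab11b, at 0.037 with mice from 0.0082 to 0.051, missed the threshold (permutation adjusted p = 0.0512), and passed it without mouse 3 (0.0243) or with a prior count of 2 (0.0496). A ratio within a library does not depend on how libraries are scaled, so these differences hold under either scaling.

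Rab15, which acts on receptor recycling, had 27.7, 39.1, 33.1 and 29.5 CPM in V1, 6.19, 8.51, 6.25 and 14.9 CPM in V3, and 7.24, 10.0, 9.12 and 13.6 CPM in V6. V1 lay above V2 to V6 in every mouse without overlap. The slope was -0.32 ± 0.048 (adjusted p = 1.4e-05), and V1 was 3.23-fold above V6. Its course followed the same zones as that of the goblet markers, whose part was not tested. Fntb, which overlaps Rab15 on the opposite strand, had a slope of 0.028 (adjusted p = 0.645). The others were Rab17 (0.10 ± 0.046, adjusted p = 0.0931, or 0.00958 with the mouse in the model), Rab35 (0.061 ± 0.052), Rab4b (0.051 ± 0.033) and Rab14 (0.021 ± 0.028), and Rab17 went from 70.0 ± 24.6 CPM in V1 to 108 ± 33.2 CPM in V2, a step of 0.65 ± 0.19 (adjusted p = 0.0189) with the mouse in the model.

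Of 4 Rabs that deliver proteins to the plasma membrane, 3 were tested, of which Rab8a and Rab10 rose, against 22.1% of all genes. Both calls ended when scaled by total UMIs, where Rab8a had a slope of 0.018 (adjusted p = 0.576) and Rab10 one of 0.03 (adjusted p = 0.519). Rab8b had a slope of 0.22 ± 0.10 (adjusted p = 0.0706), or 0.21 (adjusted p = 0.0102) with the mouse in the model, and Rab13, a Rab of cell junctions, was too low to be tested at 139 UMIs. Rab8a, needed for the apical delivery of brush border enzymes in the mouse, went from 162 ± 12.5 CPM in V1 to 214 ± 44.3 CPM in V6 with a slope of 0.085 ± 0.024 (adjusted p = 0.00695). In mouse 4 it reached 208 CPM in V4 and was back at 158 CPM in V6, and the call ended without mouse 1 or 2. Rab10, which acts in basolateral traffic, had a slope of 0.094 ± 0.033 (adjusted p = 0.0214), a call that ended without mouse 3 or 4. It overlaps the antisense gene Rab10os (slope 0.15, adjusted p = 0.0159). Whether counting used the strand is not given in the sources used here, so reads of the 2 may not be told apart.

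Of 7 early endosome Rabs, all tested, Rab5c, Rab22a and Rab31 rose, against 22.1% of all genes, and the other 4 did not pass the test. Their summed level went from 183 ± 21.9 CPM in V1 to 271 ± 32.7 CPM in V6. Rab5c, a form of the Rab5 GTPase that drives fusion of early endosomes, had 66.4, 68.6, 78.5 and 63.1 CPM in V1, 100.2, 146, 148 and 155 CPM in V4, and 128, 128, 132 and 109.9 CPM in V6. V6 lay above V1 in every library, and V4 reached as high as V6. The slope was 0.18 ± 0.028 (adjusted p = 1.3e-05), a fold of 1.80.

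The other Rab5 forms had lower counts and other slopes. Rab5a had 19.3, 13.6, 15.3 and 6.48 CPM in V1 and 32.0, 21.7, 18.9 and 6.46 CPM in V6, so that mouse 4 was nearly the same in both zones and the others were higher in V6 (0.11 ± 0.084, adjusted p = 0.279, or 0.0306 with the mouse in the model). Rab5b had 11, 8.51, 16.6 and 8.25 CPM in V1 and 8.45, 10.8, 12.6 and 11.6 CPM in V6, with overlap (0.015 ± 0.053, adjusted p = 0.841). In the ratio test, the slope of Rab5b lay below that of Rab5c (difference -0.16 per zone, permutation adjusted p = 0.0132), as did that of Rab5a (-0.092, permutation adjusted p = 0.0394). The second call ended without mouse 1, 3 or 4 (permutation adjusted p = 0.13, 0.0778 and 0.26). Rab5a and Rab5b differed by 0.066 with mice from -0.0043 to 0.10 (permutation adjusted p = 0.371). Reads from the pseudogene Rab5a-ps were not told apart here, nor were those from Rab11b-ps2 and Rab7-ps1 for Rab11b and Rab7.

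Rab22a, which acts between early and recycling endosomes, had 43.4, 28.4, 36.8 and 40.1 CPM in V1 and 76.0, 53.3, 52.6 and 53.6 CPM in V6. The groups did not overlap, and mouse 1 stood apart in V6. The slope was 0.11 ± 0.028 (adjusted p = 0.00296), and 0.043 (adjusted p = 0.179) scaled by total UMIs. Rab31, its relative, was low, at 3.86 ± 1.25 CPM in V1 and 7.5 ± 1.47 CPM in V6 (slope 0.25 ± 0.088, adjusted p = 0.0221), and its call ended without mouse 1 or 4 and when scaled by total UMIs (0.19, adjusted p = 0.0821). Rab20 (0.054 ± 0.055) and Rab21 (0.0026 ± 0.032) were not called.

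Golgi and early secretory Rabs held the largest change of the family. Of 15 genes, 10 were tested, of which Rab30, Rab1a and Rab6a rose and Rab39 fell, 4 of 10 against 45% of all genes. Rab30, a Rab of the Golgi, had 1.04, 2.27, 3.07 and 1.18 CPM in V1, 3.93, 1.70, 7.5 and 3.75 CPM in V2, and 14.4, 3.04, 14.1 and 3.92 CPM in V3. It had 22.7, 7.25, 41.5 and 10.8 CPM in V4, 25.5, 10.9, 48.5 and 14.7 CPM in V5, and 96.5, 15.8, 109 and 53.6 CPM in V6. V6 lay above V1 in each mouse without overlap, mouse 2 being lowest from V2 on and mouse 3 highest in every zone but V3. The gene lies on chromosome 7 of GRCm38, from 92741603 to 92844535. The V1 level rested on 13 UMIs over the 4 mice, with 2 to 5 in a library, against 418 in V6. The slope was 1.00 ± 0.12 (adjusted p = 1.4e-06), and between 0.93 and 1.05 under the other settings over the 6 zones that tested it.

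Rab30 was also the only Rab gene called over V3 to V6, where the goblet cell markers were level, with a slope of 0.91 ± 0.21 (adjusted p = 0.0334) among 36 Rab genes tested (background 2.58%, or 7.66% with the mouse in the model). The call there held without mouse 2 (adjusted p = 0.0167) and ended without mouse 1, 3 or 4 (adjusted p = 0.258, 0.0868 and 0.186), while the slope stayed between 0.86 and 0.97. With the mouse in the model it was 0.90 ± 0.071 (adjusted p = 5.5e-11), and the step from V5 to V6 was 1.49 ± 0.21 (adjusted p = 1.2e-05), against 1.43 ± 0.54 (adjusted p = 0.709) without it. Enteroendocrine markers, from 807 ± 161 CPM in V5 to 5851 ± 1393 in V6, and leukocyte markers, from 144 ± 31.3 to 265 ± 21.4 CPM, were also higher in V6, and their part in the result was not tested. From V3 to V6 none of the 36 Rab genes tested fell in edgeR, and 0 had an unadjusted p under 0.05 downward. Rab29, Rab27a and Rab3a were too low to be tested there, so this leaves them out. Rab29 had 7.24 ± 0.753 CPM in V3 and 4.62 ± 1.53 CPM in V6. Rab27a had 3.32 ± 1.74 and 4.4 ± 1.26 CPM, and Rab3a 3.38 ± 1.55 and 3.98 ± 1.14 CPM.

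Rab1a, which carries vesicles from the endoplasmic reticulum to the Golgi, had 118, 133, 106 and 115 CPM in V1 and 212, 197, 188 and 167 CPM in V6. All V6 libraries lay above all V1 libraries. The slope was 0.14 ± 0.024 (adjusted p = 4.6e-05), a fold of 1.62. Its relative Rab1b had 148, 123, 135 and 119.7 CPM in V1 and 177, 99.1, 138 and 143 CPM in V6, with overlap and a slope of 0.010 ± 0.026 (adjusted p = 0.783). The ratio of Rab1a to Rab1b rose by 0.13 per zone, from 0.071 in the lowest to 0.21 in the highest mouse (permutation adjusted p = 0.00131).

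Rab6a, which acts in transport back to the Golgi, had 84.6, 77.7, 128 and 99.6 CPM in V1 and 138, 109, 186 and 138 CPM in V6. Mouse 3 was high and mouse 2 low in both zones, so the groups overlapped although each mouse was higher in V6. The slope was 0.10 ± 0.037 (adjusted p = 0.0312), a call that ended without mouse 1 or 4 and under scaling by total UMIs (0.035, adjusted p = 0.403). Mrpl48, which overlaps it on the opposite strand, held 1442 UMIs and had a slope of -0.10 (adjusted p = 0.00849), and the use of strand in counting is not given in the sources used here.

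Rab39, placed with the Golgi Rabs here, had 563, 485, 239.7 and 315 CPM in V1, 245, 311, 133 and 145 CPM in V3, and 223, 291, 106 and 145 CPM in V6. It was lower in V3 than in V1 in each mouse, and mice 1 and 2 lay above mice 3 and 4 throughout, so that V1 and V6 overlapped. The slope was -0.21 ± 0.069 (adjusted p = 0.0196), a call that ended without mouse 1 or 4. With the mouse in the model the slope was -0.21 ± 0.020 (adjusted p = 3.5e-11). The genes not called were Rab33b (0.039 ± 0.050), Rab18 (0.028 ± 0.023), Rab2a (0.024 ± 0.024), Rab1b, Rab19 (-0.0052 ± 0.049) and Rab43 (-0.034 ± 0.054).

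**Figure D4:**
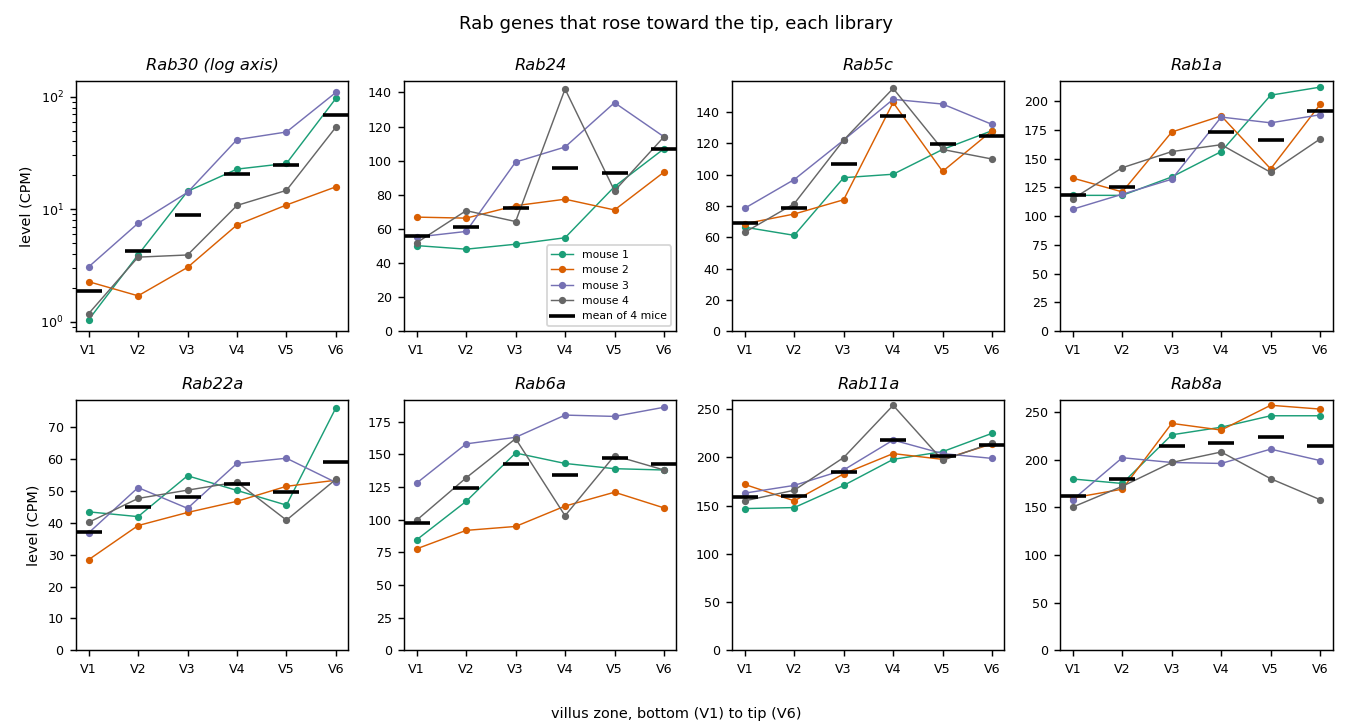
Level in CPM of 8 Rab genes that rose, by zone, with a line for each mouse and a bar for the mean of 4, on a log axis for Rab30 and on axes from 0 for the others. Rab30 climbs through all zones in mice 1, 3 and 4, while Rab5c and Rab11a have their highest mean in V4.

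Late endosome and lysosome Rabs went both ways, with Rab24 up, Rab29 down and 3 of 5 tested genes not called, against 45% of all genes called. Rab24, linked to autophagy, had 50.2, 66.9, 55.2 and 51.9 CPM in V1 and 107, 93.3, 114 and 114 CPM in V6. V6 lay above V1 in every library, and mice differed in their course between. In V4 mouse 1 was still at 54.8 CPM, while mouse 4 was at 142 CPM in this zone alone, with 64.3 CPM in V3 and 82.3 CPM in V5. The slope was 0.20 ± 0.040 (adjusted p = 4.2e-04), a fold of 1.91. Rab24 overlaps Prelid1 on the opposite strand, which held 20221 UMIs and had a slope of 0.17 (adjusted p = 4.4e-04), so reads of the 2 may not be told apart. Rab29, a Rab of lysosomes and the Golgi, went from 8.69 ± 1.96 CPM in V1 to 4.62 ± 1.53 CPM in V6 (slope -0.24 ± 0.054, adjusted p = 0.00108).

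Rab7, which governs fusion with lysosomes, was at 104 ± 26.5 CPM in V1 and 109 ± 19.2 CPM in V6 with a slope of 0.017 ± 0.029. Rab9 (-0.0082 ± 0.034) and Rab32 (0.031 ± 0.062) were not called either, nor were Rab28 (0.0039 ± 0.026) and Rab40c (-0.0043 ± 0.042), which have other roles. Rab12 was not tested, with 85 UMIs in all. The remaining untested genes, Rab2b, Rab6b, Rab23, Rab33a, Rab34 and Rab36, had between 4 and 35 UMIs each in all 24 libraries.

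Over the 14 pairs of related genes, 7 differed in slope. Besides those of the Rab1, Rab5 and Rab11 families these were Rab3a against Rab3d (0.25, mice from 0.080 to 0.34, permutation adjusted p = 0.0132) and Rab27a against Rab27b (-0.20, mice from -0.38 to -0.0018, permutation adjusted p = 0.0181). Both calls ended without mouse 2 or 3, with permutation adjusted p = 0.0761 and 0.0664 for the first pair and 0.133 and 0.151 for the second. The pairs among Rab8a, Rab8b and Rab10, and the pairs Rab22a with Rab31 and Rab19 with Rab43, did not pass. Rab8a and Rab10 differed by -0.011 with mice from -0.15 to 0.084, and Rab8a and Rab8b by -0.14 with mice from -0.20 to -0.10, which passed without mouse 2 (permutation adjusted p = 0.0134). Over V3 to V6, 0 of 14 pairs passed the same permutation test, and 2 had an unadjusted p under 0.05, Rab1a with Rab1b and Rab19 with Rab43. Several of these pairs share genes, so they are not independent.

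**Figure D5:**
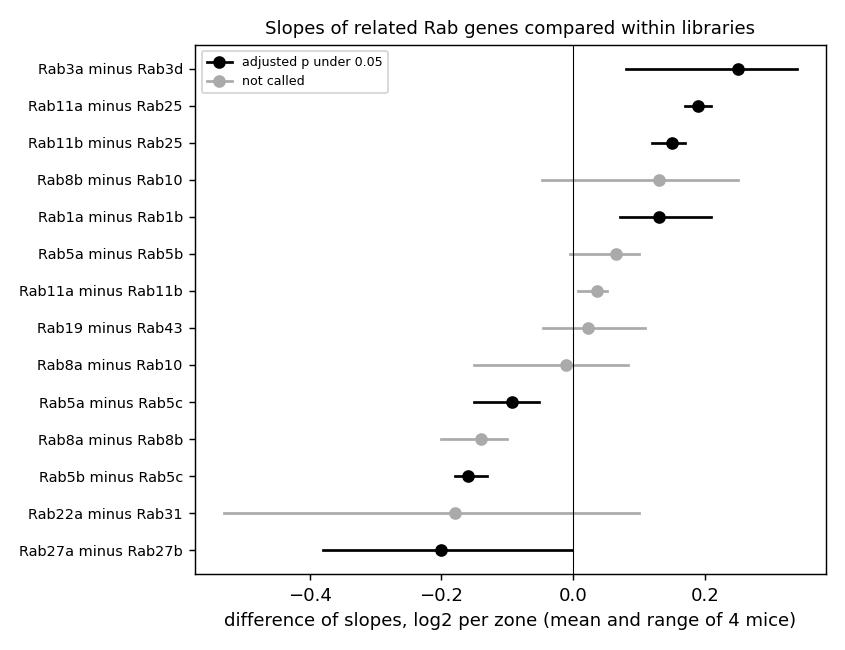
Difference of slopes (first gene minus second, log2 per zone) for 14 pairs of related Rab genes, as mean (point) and range (line) of 4 mice, in black where the permutation adjusted p was under 0.05. Rab11a minus Rab25 stands at 0.19 with a narrow range, and Rab27a minus Rab27b at -0.20 with a range that reaches nearly 0.

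Partners of the Rab proteins were described by counts on the slope test, beside a background of 22.1% higher and 22.8% lower. Of 34 Rab effectors tested, 8 rose and 4 fell, with a median slope of 0.068. The 4 that fell were Sytl2 (-0.47 ± 0.079), Mlph (-0.31 ± 0.054), Myo5c (-0.45 ± 0.083) and Rph3al (-0.28 ± 0.060). Sytl2 and Mlph bind Rab27 proteins, Rph3al binds Rab27 and Rab3 proteins, and Myo5c is a motor of secretory granules. Not all such partners fell, since Sytl3, a relative of Sytl2, rose (0.22 ± 0.054, edgeR adjusted p = 0.00206). It went from 4.06 ± 1.78 CPM in V1 to 11.2 ± 1.77 CPM in V6. Among those that rose were Ehbp1l1, a Rab8 partner in apical transport (24.6 ± 6.84 CPM in V1, 91.5 ± 11.1 in V6; slope 0.38 ± 0.034), the Rab9 partner Plin3 (0.36 ± 0.044), also a lipid droplet protein, and the lysosomal Rab7 partner Plekhm1 (0.43 ± 0.061). Of these effectors, 14 rose and 4 fell with the mouse in the model, where 27.6% of all genes rose and 27.8% fell.

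Of 37 exchange factor genes tested, 8 rose. Those with the smallest adjusted p were Dennd1b (0.29 ± 0.044), Mon1a of the Rab7 exchange factor (0.19 ± 0.030) and Rab3gap2, part of an exchange factor for Rab18 (0.19 ± 0.034). The 3 that fell were Trappc6a (-0.11 ± 0.023), Dennd2d (-0.13 ± 0.036) and Rin2 (-0.20 ± 0.070), and 4 fell with the mouse in the model. Of 23 TBC domain genes, 6 rose. Those with the smallest adjusted p were Tbc1d20 (0.15 ± 0.027), which acts on Rab1, Tbc1d1 (0.26 ± 0.051), which acts on Rab8 and Rab10, and Tbc1d10b (0.13 ± 0.030). Sgsm3 (-0.35 ± 0.062), Tbc1d2b (-0.25 ± 0.062) and Sgsm2 (-0.18 ± 0.071) fell. Of 11 prenylation and recycling factors, Yipf5 (0.14 ± 0.037) rose and Yipf6 (-0.13 ± 0.047) and Rabac1 (-0.075 ± 0.026) fell, and with the mouse in the model 4 rose and 2 fell.

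Of 9 apical membrane fusion genes tested, 5 rose and 0 fell, at a median slope of 0.11. Those with the smallest adjusted p were the SNARE gene Stx3 (60.8 ± 9.23 CPM in V1, 126 ± 15.7 in V6; slope 0.20 ± 0.027, adjusted p = 4.0e-06), Vamp8 (0.14 ± 0.027) and Stxbp2, whose product binds Stx3 (0.11 ± 0.025), and the others were Snap23 and Vti1b. With the mouse in the model 7 rose and 0 fell. Of the 9 exocyst subunits, which tether vesicles for Rab11 and Rab8, Exoc5 alone passed (0.10 ± 0.037, adjusted p = 0.0319). Of 9 HOPS and CORVET genes, which tether endosomes and lysosomes for Rab5 and Rab7, 0 were called by edgeR, DESeq2 or limma-voom, and 0 had an unadjusted p under 0.05 in edgeR.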

How the data were processed

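Polyadenylated RNA of sorted cells was made into mcSCRB-seq libraries, per the labels' protocols, a method that counts UMIs at the 3′ end. What the authors deposited is a table of UMI counts, not normalized, with 24 libraries. The submitters' processing notes name bcl2fastq 2.15.0.4 and build GRCm38. Aligner, annotation and strand use: not given in the sources used here. All 51 Rab identifiers matched GENCODE M21.

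Genes kept by filterByExpr with zone as group (10 counts at least, 15 in total) were fitted in edgeR 4.0.16 (R 4.3.3) with TMM scaling, a mean per zone, robust quasi-likelihood dispersions and 18 residual degrees of freedom. The Benjamini-Hochberg adjustment ran over all 9328 genes within each contrast, and calls used 0.05. Slopes are log2 change per zone, and curvature is the quadratic contrast. The slope test and the permutation test were run first on simulated data with known slopes. Pairs of related genes were compared by permuting zones within mice (2-sided, 100000 resamples, prior count 0.5 in the log2 ratio). Alternatives used DESeq2 1.42.0 and limma 3.58.1.

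The mouse number marks the same animal, so it pairs the libraries. Libraries of a mouse deviated together from their zone means, at a mean correlation of 0.422 over 60 pairs (lowest 0.184, all 60 over 0.1). Values with the mouse as a block are given for Rab genes whose slope or curvature call they change. For the other contrasts and the lists mainly the changed counts are given. The deposited index column, read here as a pool label, nearly follows the mouse, so pool and mouse cannot be told apart.

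Members, roles, lists and pairs were chosen with earlier results of these data known. Every mouse's value was to be given for up to 7 rises and 7 falls that were called, averaged 20 CPM or more and had the same direction in 4 of 4 mice, for called curvature and for pairs whose slopes differ. Of each list, up to 3 called genes per direction were to be named. For the other Rab genes tested, the slope and its SE were to be given. Rph3al, Sytl3, Snap23 and Vti1b, and the CPM of Rab7, Rab8a, Rab17, Rab29 and Rab31, were added after their values were seen.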

Additional observations from a re-analysis of the deposited data

Results flagged for a closer look

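A single mouse stood apart from the other 3 of its zone in 2 of the results named above, by a gap to the nearest mouse that was past the critical share of the range of the 4 in Dixon's test. Rab22a had 76.0 CPM in V6 of mouse 1, against 52.6 to 53.6 CPM in the others. Rab3d had 37.5 CPM in V6 of mouse 4, against 20.5 to 23.1 CPM in the others. Chance alone gives such a gap in about 1 of 20 groups.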

How the results depend on the processing

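Of the 11 rises and 7 falls in slope, 5 and 1 were called over V2 to V6, and 1 and 0 over V3 to V6 (with the replicate block also 1 and 0). At a mean of 50 CPM or more there were 5 and 2, with 16 Rab genes tested there rather than 39. Over V3 to V6 the falls of Rab27a and Rab29 were not tested. Scaled by total UMIs there were 4 rises, also for V6 minus V1, and leaving out a mouse gave 7 to 10 rises. At 50 CPM, V6 minus V1 had 4 higher and 2 lower, curvature 0 and any difference 5, among the same 16 genes. The share over all genes was not taken at 50 CPM, without a mouse, without a filter or for the other tools. Counts under these settings therefore have no background beside them. Leaving out a mouse gave 2 to 4 genes in curvature, 0 to 1 for the step from V2 to V3 and 0 to 1 for the rise over V3 to V6. With the replicate block, 3 genes were curved downward, 18 differed in any way, and the steps had 6 (V1 to V2), 6 (V2 to V3), 1 (V3 to V4) and 1 (V5 to V6), with 4 rises in the prenylation list and 14 among effectors. The step from V1 to V2 had 2 calls in DESeq2 and 1 in limma-voom, where edgeR had 0 and 4 at an unadjusted p under 0.05. That from V2 to V3 had 2 in DESeq2, 0 in limma-voom, 0 at 50 CPM, 2 without a filter and 2 by total UMIs. No pair differed over V3 to V6 (0 of 14). The sign turned for Rab11b by total UMIs (-0.0088), and over V3 to V6 for Rab15 (0.079, block 0.079), Rab27b (0.25, block 0.26), Rab3d (0.031, block 0.022), Rab8a (block -0.0029) and Rab5b minus Rab5c (0.024), none of them called there. The cause was not tested. DESeq2 size factors, the DESeq2 Wald test and limma-voom changed the call of no Rab slope (39 of 39 each), and the replicate block added 3 and ended 0. Counts limit the genes under about 5 CPM.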
